A study of Mus musculus with 12 samples.

Results

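Telmisartan and irbesartan, 2 drugs that block the angiotensin type 1 receptor, were treated as 1 class and set against pioglitazone. The class held 8 of the 12 arrays of the series, 4 with telmisartan and 4 with irbesartan, and the pioglitazone arrays numbered 4. Every array of the class was used. Each was an Agilent 2-colour oligonucleotide array carrying RNA of drug-treated mouse cell cultures in 1 channel and RNA of vehicle-treated cultures in the other, so all 3 drugs were measured against vehicle. Within each drug, arrays 1 and 3 carried the drug RNA in channel 1, and arrays 2 and 4 carried it in channel 2. Per the labels, the RNA on each side was pooled from independent cultures. The labels give no cell type, strain, genotype, dose or time of treatment, and leave unsaid whether a drug's 4 arrays shared 1 pool and whether the drugs shared 1 vehicle RNA. Whether the doses and times of the 3 drugs matched is therefore unknown, and each difference is one between treatments as they were given.

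Both blockers carry a biphenyl group. Telmisartan joins it to a pair of benzimidazole rings and ends in a carboxylic acid, whereas irbesartan joins it to a spirocyclic imidazolinone and ends in a tetrazole. Pioglitazone is a thiazolidinedione and has no biphenyl. The series title describes such blockers as activators of PPAR-gamma, the nuclear receptor that thiazolidinediones bind. PPAR-gamma pairs with the retinoid X receptor on DNA and is best known in fat cells, where it switches on genes for taking up, storing and burning fatty acids. Its full agonists also lower a set of genes that includes Pparg itself.

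Values are log2 ratios of drug over vehicle. The joint difference is the mean of the telmisartan and irbesartan means minus the pioglitazone mean, given ± SE of the limma fit of all 12 arrays, so a positive joint difference means a higher ratio with the blockers. In all, 4 comparisons between compounds were made (the class, telmisartan and irbesartan each against pioglitazone, and telmisartan against irbesartan). Their adjusted p-values are Benjamini-Hochberg values of limma's moderated test over all features and these 4 comparisons, with a two-sided threshold of 0.05. The first 3 comparisons share the pioglitazone arrays, so they are not independent of each other. Tests against vehicle (each drug and the blocker mean) were adjusted apart, over all features and those tests. List counts come from a fit of genes, adjusted in the same way over all genes. Which channel is the numerator is nowhere given. Channel 2 is the likely one: read so, 12 of the 15 measured PPAR-gamma targets that pioglitazone shifted at least 1.5-fold stand above vehicle. If channel 1 were the numerator, the sign of each value here would turn, and the direction of PPAR-gamma targets under pioglitazone is not independent of this choice. The arrays held values for 17877 to 20721 of 22393 spots. Array 2 of telmisartan scattered most (array weight 0.228, against 0.587 to 1.48 on the other 11). Spread between arrays, the basis of all p-values here, may be technical only.

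The class differed from pioglitazone at 2977 of 17217 features (17.3%), of which 1744 were higher with the blockers (10.1%) and 1233 lower (7.16%). A feature is a spot, or the average of repeat spots. Telmisartan alone differed from pioglitazone at 2555 features (14.8%) and irbesartan alone at 2942 (17.1%). Most differences were small: 132 features reached 1.5-fold jointly (0.767%), 98 higher (0.569%) and 34 lower (0.197%). Both blockers lay on the same side of pioglitazone at 12050 of all features (70%), called or not. Among the 2977 called jointly they did so at 2929 (17% of all), but a call on their mean itself favours a shared side. At 1390 features (8.07%) each blocker also passed the test on its own with 1 sign, 848 higher (4.93%) and 542 lower (3.15%), and the largest of them are described below. Against vehicle, telmisartan passed at 41.2% of features, irbesartan at 32.9%, the blocker mean at 45% and pioglitazone at 48.7%.

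At 1135 of those 1390 features (81.7%, or 6.59% of all features) pioglitazone passed against vehicle and the blocker mean lay on pioglitazone's side of vehicle and nearer to vehicle. At 75 (0.436% of all) the blocker mean and pioglitazone both passed against vehicle on opposite sides, and at 30 (0.174%) both passed on 1 side with the blocker mean farther from vehicle. The remaining 150 fell in none of these classes. The first class did not need the blocker mean to pass against vehicle, as the others did. With that added it held 1010 features (5.87% of all). All were picked by their distance from the pioglitazone estimate that also places them, so these counts are a description. Where both blockers differed from pioglitazone, their mean thus mostly stood between it and vehicle. A single blocker need not have done so, as Retn was in this class with irbesartan at 0.09 and pioglitazone at -0.62. Among the 344 features at least 1.5-fold higher with pioglitazone than with vehicle, the median ratio was 0.53 with telmisartan, 0.49 with irbesartan and 0.75 with pioglitazone. Among the 635 features at least 1.5-fold lower, it was -0.47 with telmisartan, -0.43 with irbesartan and -0.78 with pioglitazone. These features were picked by the size of the pioglitazone ratio, so its estimate is favoured in them, and these medians are a description. When every array was scaled to the same spread, 1680 features passed jointly, and 1032 passed with no dye term in the fit. Such scaling evens out all of an array's spread, whether from drug response, dye or noise.

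**Figure D1:**
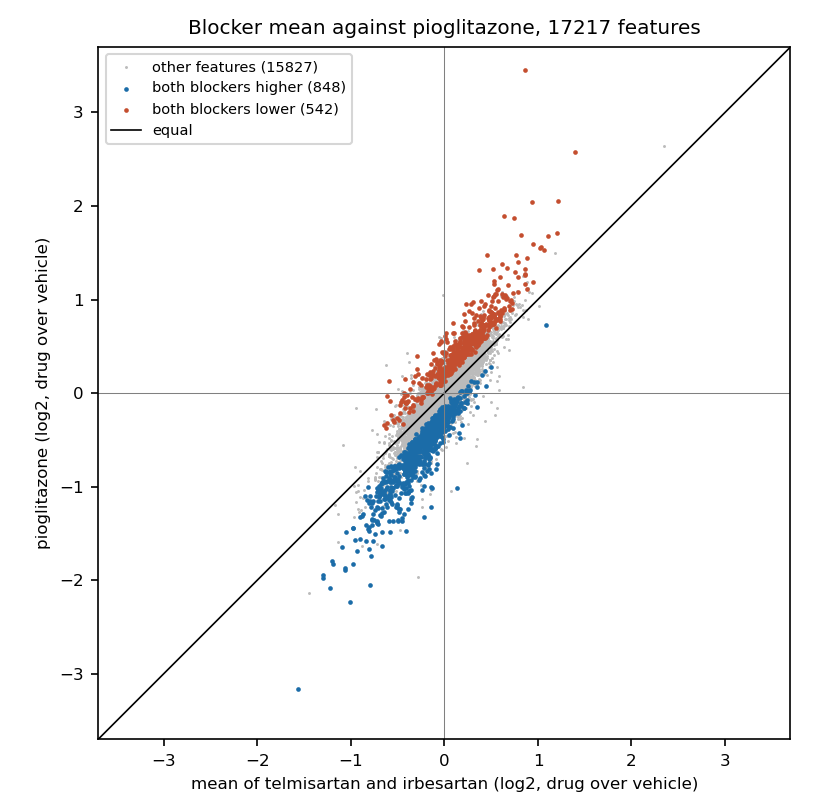
Each point is 1 of 17217 features, placed by the mean fitted log2 ratio of telmisartan and irbesartan over vehicle (horizontal) and the pioglitazone ratio (vertical). The 848 features higher and the 542 features lower with each blocker than with pioglitazone are coloured. Most lie between the line of equal ratios and the vertical line at 0, that is, with the blocker mean on pioglitazone's side of vehicle and nearer to vehicle.

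The gene with the largest joint difference was Olr1, which encodes a scavenger receptor for oxidised LDL and is a PPAR-gamma target in fat cells. Its log2 ratios were 0.49, 0.08, 0.41 and 0.96 on the telmisartan arrays and 1.16, 1.36, 1.23 and 1.18 on the irbesartan arrays, against 3.11, 3.64, 3.61 and 3.44 on the pioglitazone arrays. The 3 groups did not overlap, and the blockers stood 6.03-fold below pioglitazone jointly (-2.59 ± 0.14, adjusted p = 2.91e-06). Olr1 was also lower with telmisartan than with irbesartan (-0.75, 95% interval -1.11 to -0.38, adjusted p = 0.0116). Krt23, a type I keratin gene, had ratios of 1.62, 1.32, 1.47 and 1.75 with telmisartan and 1.5005, 1.11, 1.06 and 1.32 with irbesartan, against 2.45, 2.58, 2.85 and 2.45 with pioglitazone (-1.19 ± 0.11, adjusted p = 6.72e-05). Every blocker array was below every pioglitazone array.

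Pdk4, whose kinase switches off pyruvate dehydrogenase, rose with all 3 drugs. Its ratios were 1.08, 0.82, 1.15 and 0.99 with telmisartan and 0.95, 0.76, 0.97 and 0.77 with irbesartan, against 1.99, 2.00, 2.11 and 2.08 with pioglitazone (-1.11 ± 0.05, adjusted p = 8.68e-07). The groups of blockers overlapped each other and neither reached the lowest pioglitazone array. Hilpda, a lipid droplet protein that restrains fat breakdown, had ratios of 0.52 to 0.64 with telmisartan and 0.42 to 0.50 with irbesartan, against 1.29 to 1.36 with pioglitazone (-0.81 ± 0.03). The carbonyl reductase gene Cbr3 (-0.88 ± 0.04) and Arxes1, named for its expression in fat cells (-0.83 ± 0.12), were lower too. At all of these the drugs raised the gene above vehicle, pioglitazone most. Of the 10 lowest joint differences, 2 were at spots with no gene in the annotation, at -1.25 and -1.12.

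A pair of the lowest genes belongs to growth factor signalling through the kinase ERK. Dusp6, a phosphatase that inactivates ERK, had ratios of 0.36, 0.42, 0.32 and 0.38 with telmisartan and 0.30, 0.39, 0.31 and 0.46 with irbesartan, against 1.23, 1.38, 1.24 and 1.40 with pioglitazone. The blocker values overlapped, with a difference between telmisartan and irbesartan of 0.01 (95% interval -0.07 to 0.08), and the blockers jointly stood 1.92-fold below pioglitazone (-0.94 ± 0.03, adjusted p = 1.20e-07). Fosl1, a subunit of the transcription factor AP-1, had ratios of 0.49, 0.19, 0.44 and 0.41 with telmisartan and 0.46, 0.47, 0.54 and 0.59 with irbesartan, against 1.51, 1.35, 1.61 and 1.46 with pioglitazone (-1.03 ± 0.06, adjusted p = 2.44e-06). A list of genes that respond to ERK, drawn up after these values were seen, had 11 of 24 tested genes lower with the blockers and 0 higher, and 9 of the 11 passed for each blocker. Over all 13950 genes, 7.71% were lower and 11.1% higher, but the list was chosen with these genes in view and does not support anything by its count.

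Promoters are shown for 3 of the 4 leading genes in which the motif searches found a match. They are Olr1 and Hilpda, which match an AP-1-type pattern, and Gbp3, which the blockers moved to opposite sides of vehicle. The sequences are RefSeq's (GRCm38.p6), the 150 bases before the start site, with matches in capitals. RefSeq promoter windows of 300 bases were found for 13 of the named leading genes. The AP-1-type pattern, TGANTCA with any base in the middle, was searched on both strands. It was in the windows of Olr1 (as TGAGTCA) and Hilpda (as TGAATCA), and in 7.81% of all 32851 windows. An interferon-type element (GAAA, 2 bases of any kind, GAAA) was in those of Gbp3, where 2 matches overlap, and Akr1c14, and in 3.44% of all windows. A PPAR-gamma element, the direct repeat of AGGNCA with 1 base of any kind between, was in 0.381% of all windows and in 0 of the leading genes' windows. A match describes letters in a window and shows no binding.
Olr1 (chr6:129507166-129507315, minus strand): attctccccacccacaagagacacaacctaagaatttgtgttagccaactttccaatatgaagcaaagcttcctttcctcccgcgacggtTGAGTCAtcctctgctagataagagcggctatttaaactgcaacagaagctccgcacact
Hilpda (chr6:29272476-29272625, plus strand): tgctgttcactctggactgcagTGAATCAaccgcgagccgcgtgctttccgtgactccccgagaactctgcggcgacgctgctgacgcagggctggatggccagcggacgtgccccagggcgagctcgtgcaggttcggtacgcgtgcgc
Gbp3 (chr3:142559894-142560043, plus strand): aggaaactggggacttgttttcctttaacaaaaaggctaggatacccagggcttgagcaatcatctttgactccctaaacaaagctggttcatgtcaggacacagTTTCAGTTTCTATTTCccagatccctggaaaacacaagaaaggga

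The largest difference in the other direction was at Camp, the gene of the antimicrobial peptide cathelicidin, which fell with all 3 drugs. Its ratios were -1.94, -1.22, -1.71 and -1.88 with telmisartan and -1.27, -1.48, -1.498 and -1.56 with irbesartan, against -2.77, -3.31, -3.20 and -3.37 with pioglitazone. No blocker array reached the pioglitazone range, and the ratio was 3.01-fold higher with the blockers (1.59 ± 0.14, adjusted p = 6.29e-05). Telmisartan and irbesartan were not shown to differ there (-0.24, 95% interval -0.60 to 0.13). Ogn, a small leucine-rich proteoglycan of the matrix, had ratios of -0.81, -0.90, -0.76 and -0.87 with telmisartan and -0.67, -0.82, -0.72 and -0.81 with irbesartan, against -1.98, -2.18, -1.997 and -2.04 with pioglitazone (1.25 ± 0.03, adjusted p = 5.93e-08). Lox, the lysyl oxidase that cross-links collagen, had -0.36, -0.50, -0.41 and -0.47 with telmisartan and -0.39, -0.34, -0.47 and -0.38 with irbesartan, against -1.55, -1.42, -1.52 and -1.41 with pioglitazone (1.06 ± 0.04, adjusted p = 4.57e-07). In both matrix genes the blocker groups overlapped each other and stood clear of pioglitazone.

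The proteoglycan gene Lum (0.95 ± 0.04) and Mrc2, a receptor that takes up collagen (1.08 ± 0.18), were also among the 10 highest. At Mrc2 neither blocker passed against vehicle (adjusted p = 0.207 for telmisartan and 0.871 for irbesartan). Mrc2 varied widely with telmisartan, at 0.10, -0.46, 0.14 and -0.77, and all 8 blocker values were above the highest pioglitazone value. Phkg1, a catalytic subunit of phosphorylase kinase, had ratios of -1.58 to -0.80 with telmisartan and -1.21 to -0.58 with irbesartan, against -2.39 to -2.02 with pioglitazone (1.23 ± 0.15). Akr1c14, a hydroxysteroid dehydrogenase, was lowered by pioglitazone (-1.33) and less by irbesartan (-0.42), and its telmisartan ratio of -0.02 did not pass against vehicle (adjusted p = 0.818). The transcription factor gene Maf stood at 0.92 ± 0.06 at 1 spot, while its other spot was at 0.25 and did not pass (adjusted p = 0.168). Lars2, a mitochondrial leucyl-tRNA synthetase, stood at 0.97 ± 0.18, but on all 6 arrays with the drug in channel 1 its ratio was within 0.0015 (log10) of that of Fabp4, so its spot may not measure the gene there, and the difference lost its call with no dye term (adjusted p = 0.0851).

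**Figure D2:**
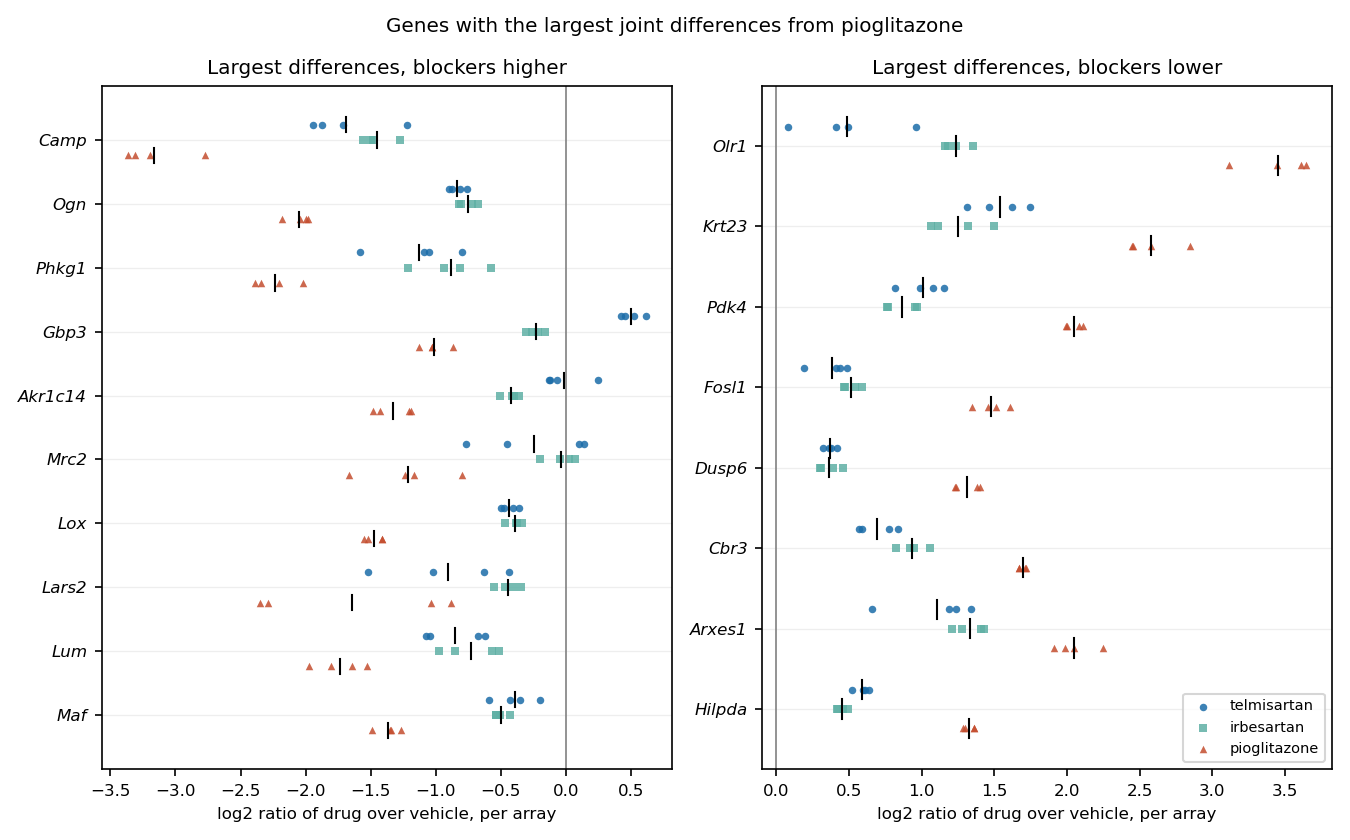
Log2 ratios of drug over vehicle on each of 4 arrays a drug (points) with their mean (bar), for the named genes among the 10 largest (left) and 10 smallest (right) joint differences. Except for Lars2, the blocker arrays stand clear of the pioglitazone arrays, and for Gbp3, Akr1c14, Olr1 and Hilpda the blockers also stand clear of each other.

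Some features were on opposite sides of vehicle. Gbp3, an interferon-inducible guanylate-binding protein, had ratios of 0.42, 0.61, 0.45 and 0.52 with telmisartan and -0.26, -0.16, -0.31 and -0.21 with irbesartan, against -1.03, -1.03, -1.13 and -0.87 with pioglitazone. Telmisartan raised it, irbesartan and pioglitazone lowered it, and the blocker mean lay above vehicle on the strength of telmisartan. The joint difference was 1.15 ± 0.04 (adjusted p = 1.53e-07), and telmisartan was 0.74 above irbesartan (adjusted p = 5.17e-06). Egr1, an immediate early transcription factor, had ratios of -0.68, -0.21, -0.77 and -0.33 with telmisartan and -0.18, -0.01, -0.12 and -0.08 with irbesartan, against 0.31, 0.38, 0.39 and 0.49 with pioglitazone (-0.69 ± 0.07, adjusted p = 9.95e-05). Telmisartan lowered Egr1, pioglitazone raised it, and irbesartan did not pass against vehicle (adjusted p = 0.192).

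Pygl, the liver form of glycogen phosphorylase, was split the other way round. Its ratios were -0.08, -0.06, -0.13 and -0.16 with telmisartan and 0.42, 0.36, 0.48 and 0.42 with irbesartan, against -0.29, -0.53, -0.36 and -0.52 with pioglitazone (0.58 ± 0.04), so telmisartan and pioglitazone lowered it and irbesartan raised it. Snrpn, a splicing ribonucleoprotein gene, did not pass against vehicle with telmisartan (-0.03), was raised by irbesartan (0.36) and was lowered by pioglitazone (-0.48). Xiap, an inhibitor of caspases, was the named gene in this class that both blockers lowered (-0.38 with telmisartan and -0.20 with irbesartan) and pioglitazone raised (0.26), with a joint difference of -0.55 ± 0.06 (adjusted p = 2.84e-04). An unnamed spot with a joint difference of 0.54 completed the 6 largest.

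At a few features the blockers went farther than pioglitazone. Ero1a, an oxidase that forms disulfide bonds in the endoplasmic reticulum, had ratios of 0.99, 1.12, 1.05 and 1.33 with telmisartan and 0.92, 1.20, 0.97 and 1.13 with irbesartan, against 0.71, 0.74, 0.64 and 0.82 with pioglitazone (0.36 ± 0.05, adjusted p = 4.90e-04). All 8 blocker arrays were above all 4 pioglitazone arrays. Klf4, a transcription factor that acts early in fat cell differentiation, had ratios of -0.26, -0.35, -0.26 and -0.32 with telmisartan and -0.46, -0.60, -0.42 and -0.57 with irbesartan, against -0.12, -0.11, -0.09 and -0.06 with pioglitazone (-0.31 ± 0.03). Plaat3, a phospholipase abundant in fat tissue, fell by more with the blockers (-0.59 with telmisartan and -0.55 with irbesartan) than with pioglitazone (-0.24). Akap9 (-0.35), Fam168a (-0.31, lost with no dye term) and the phosphatase subunit gene Ppp2r5e (-0.30) complete the 6 largest, but a second spot of Akap9 stood at -0.0067 and one of Ppp2r5e at 0.17, neither past the threshold. This class held 8 features higher and 22 lower with the blockers, and 16 features in all when pioglitazone array 2 was left out, or 17 without pioglitazone array 1 or 4. The opposite class held 46 features in place of 75 without pioglitazone array 4.

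**Figure D3:**
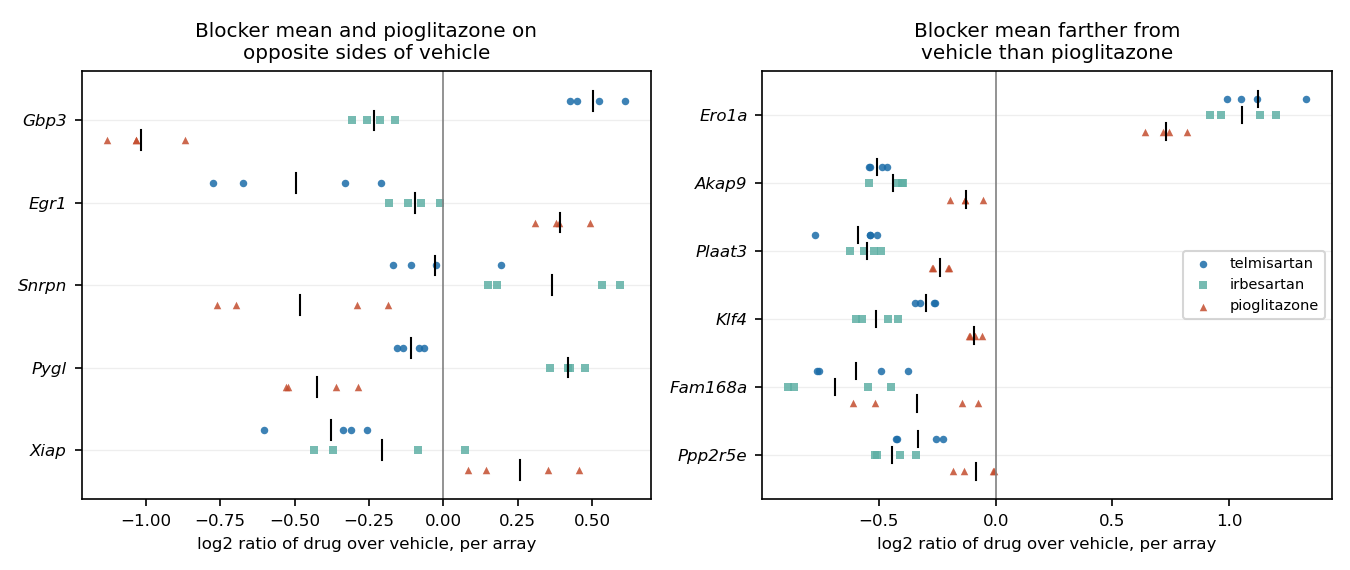
Log2 ratios of drug over vehicle on each array (points) and their mean (bar) for genes whose blocker mean lay on the other side of vehicle from pioglitazone (left) or beyond it (right). Xiap is lowered and Ero1a raised by both blockers, whereas at Gbp3, Egr1, Snrpn and Pygl the blockers also differed from each other past the threshold.

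Gene lists are described by how many genes passed in the joint comparison. That comparison tests the blocker mean, so a gene counted as higher or lower need not be so with each blocker. Of all 13950 genes, 18.9% passed, 11.1% higher with the blockers and 7.71% lower, and the median joint difference over all genes was 0.003. The lists were chosen with earlier results of these data known, so their counts are a description and not independent support. Of 29 tested PPAR-gamma targets, 15 were lower with the blockers than with pioglitazone and 3 were higher. Olr1, Pdk4, Cbr3 and Hilpda, described above, are among the 15, as is the lipid droplet coat protein Plin2 (-0.54 ± 0.09, lost with arrays scaled). The median ratio over these genes was 0.09 with telmisartan, 0.13 with irbesartan and 0.44 with pioglitazone. The scavenger receptor and fatty acid transporter Cd36 had ratios of 0.69, 0.66, 0.69 and 0.66 with telmisartan and 0.51, 0.71, 0.60 and 0.71 with irbesartan, against 1.00, 1.07, 0.88 and 1.06 with pioglitazone (-0.35 ± 0.04, adjusted p = 3.16e-04). All drugs raised it and the blockers did so by less. Angptl4, an inhibitor of lipoprotein lipase, was lower with the blockers (-0.47 ± 0.04, adjusted p = 3.37e-05), and lower with telmisartan than with irbesartan (-0.30). The 3 targets that were higher with the blockers were Adipoq, which encodes adiponectin (0.54 ± 0.09), lipoprotein lipase (Lpl, 0.77 ± 0.17) and the desaturase gene Scd1 (0.19), which was named after its values were seen. Adipoq (-0.95) and Lpl (-1.12) fell with pioglitazone. Lpl shared the Fabp4 ratio on 5 arrays and Adipoq on 2, so these spots may not measure the genes there. Fabp4 itself did not pass (0.14 ± 0.17, adjusted p = 0.656) and its ratios were -0.44, 0.32, -0.63 and -0.53 with telmisartan and -0.34, 0.20, -0.40 and 0.20 with irbesartan, against -0.88, 0.39, -1.04 and 0.16 with pioglitazone. With irbesartan and pioglitazone the arrays with the drug in channel 1 were below vehicle and those with it in channel 2 above, whereas with telmisartan array 2 alone was above.

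Of 9 tested genes known to be lowered by thiazolidinediones, 5 were higher with the blockers than with pioglitazone (Pparg, Hsd11b1, Agt, Retn and Sncg) and 2 were lower (Lep and the chemokine gene Ccl2). For each blocker, 4 of the 5 passed and 0 of the 2 did. Sncg missed the threshold with telmisartan (adjusted p = 0.331) and Ccl2 with irbesartan (adjusted p = 0.0902). Lep was raised by pioglitazone (0.11, adjusted p = 0.0023), and neither blocker passed against vehicle there. Pparg itself had ratios of -0.70, -0.50, -0.65 and -0.62 with telmisartan and -0.62, -0.47, -0.61 and -0.45 with irbesartan, against -1.13, -1.04, -1.16 and -1.03 with pioglitazone (0.51 ± 0.03, adjusted p = 6.06e-06). All drugs lowered Pparg, and no blocker value reached the pioglitazone range. Hsd11b1, which regenerates active glucocorticoid, was higher with the blockers (0.39 ± 0.04), as were Agt, the angiotensin precursor (0.45 ± 0.03), and the adipokine Retn (0.49 ± 0.03). Retn had ratios of -0.36, -0.27, -0.41 and -0.32 with telmisartan and 0.04, 0.12, -0.01 and 0.20 with irbesartan, against -0.67, -0.55, -0.67 and -0.59 with pioglitazone, and the 3 groups did not overlap. Leptin (Lep) was lower with the blockers (-0.11, adjusted p = 0.0186), a call that was lost with arrays scaled (adjusted p = 0.0584), with dye-swap pairs averaged (0.0577), with no dye term (0.399), and without pioglitazone array 3 (0.0549) or 4 (0.0713). The glucose transporter Slc2a4 was not shown to differ jointly (0.04, 95% interval -0.03 to 0.12, adjusted p = 0.431), nor was the angiotensin receptor Agtr1a (-0.01, 95% interval -0.14 to 0.11, adjusted p = 0.919).

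Genes of fatty acid oxidation were lower with the blockers at 14 of 24 tested genes and higher at 0. Their median ratio was 0.07 with telmisartan, 0.20 with irbesartan and 0.37 with pioglitazone. Cpt1a, which admits fatty acids to the mitochondrion, had ratios of -0.02, 0.08, -0.01 and 0.12 with telmisartan and -0.10, 0.11, -0.13 and 0.19 with irbesartan, against 0.50, 0.57, 0.51 and 0.62 with pioglitazone (-0.52 ± 0.04, adjusted p = 1.77e-05). Neither blocker passed against vehicle at Cpt1a (adjusted p = 0.308 for telmisartan and 0.712 for irbesartan). The peroxisomal enzyme Ehhadh (-0.46 ± 0.06), the acyl-CoA dehydrogenase Acadl (-0.44 ± 0.06) and Hadhb, a subunit of the trifunctional protein (-0.43 ± 0.04), were lower as well. Telmisartan was lower than irbesartan at 8 of the 24 genes and higher at 0, against 5.71% lower and 6.81% higher over all genes.

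Respiratory chain genes were lower with the blockers than with pioglitazone at 40 of 86 tested genes and higher at 2. The median ratio over the 86 was 0.24 with telmisartan, 0.24 with irbesartan and 0.35 with pioglitazone. Cytochrome c (Cycs) had ratios of 0.80, 1.19, 0.83 and 1.03 with telmisartan and 1.04, 1.46, 1.05 and 1.49 with irbesartan, against 1.56, 1.81, 1.58 and 1.76 with pioglitazone (-0.56 ± 0.04, adjusted p = 2.64e-05), and its second spot was at -0.31. Cycs was raised by all 3 drugs, and irbesartan stood between telmisartan and pioglitazone. The complex III subunit Uqcrc2 (-0.32 ± 0.04), the cytochrome oxidase subunit Cox7b (-0.31 ± 0.04) and the ATP synthase subunit Atp5g1 (-0.31 ± 0.04) differed by smaller amounts. Of 72 mitochondrial ribosomal protein genes, 18 were lower with the blockers and 2 higher, among them Mrpl34 (-0.28). Of 24 citrate cycle genes 8 were lower and 2 higher, and the lower ones included the isocitrate dehydrogenase subunit Idh3a (-0.23), which lost its call with no dye term and with arrays scaled. With arrays scaled to the same spread, 10 respiratory chain, 3 mitochondrial ribosomal and 3 citrate cycle genes were lower with the blockers, and without pioglitazone array 4 the mitochondrial ribosomal count was 11.

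Genes of the extracellular matrix were higher with the blockers at 35 of 65 tested genes and lower at 0, and 29 of the 35 passed for each blocker. The median ratio was -0.26 with telmisartan, -0.17 with irbesartan and -0.45 with pioglitazone, so these genes lay below vehicle and farther below it with pioglitazone. Without telmisartan array 2, 35 were higher and 3 lower. Fibronectin (Fn1) had ratios of -0.88, -0.66, -0.89 and -0.76 with telmisartan and -0.80, -0.85, -0.82 and -0.83 with irbesartan, against -1.61, -1.70, -1.62 and -1.74 with pioglitazone (0.86 ± 0.05, adjusted p = 3.51e-06). The blockers overlapped each other and were clear of pioglitazone, with a difference between telmisartan and irbesartan of 0.03 (95% interval -0.10 to 0.15). Among 14 markers of fibroblasts and preadipocytes, 9 were higher with the blockers and 0 lower, and their median was -0.57 with telmisartan, -0.58 with irbesartan and -0.95 with pioglitazone. The growth factor receptor Pdgfra (0.57 ± 0.04), the TAM receptor ligand Gas6 (0.58 ± 0.03), S100a4 (0.56 ± 0.08) and the preadipocyte factor Dlk1 (0.35 ± 0.03) were among them. With arrays scaled, 8 of the markers were higher and 1 was lower. In pooled cultures, fewer cells of a type and less RNA per cell cannot be told apart.

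Cell cycle genes were lower with the blockers at 16 of 35 tested genes and higher at 1, with a median ratio of 0.15 with telmisartan, 0.10 with irbesartan and 0.30 with pioglitazone. The proliferation marker Mki67 had ratios of 0.28, 0.14, 0.25 and 0.20 with telmisartan and 0.15, 0.06, 0.11 and 0.10 with irbesartan, against 0.50, 0.45, 0.71 and 0.53 with pioglitazone (-0.39 ± 0.04, adjusted p = 1.97e-04). Thymidine kinase (Tk1) was lower too (-0.37 ± 0.06), as were the centromere histone Cenpa (-0.45 ± 0.06) and Cks2 (-0.51 ± 0.09), although Cenpa and Cks2 lost their calls with no dye term (adjusted p = 0.0591 and 0.0625). Genes of the oxidative stress response were lower at 13 of 25 and higher at 4. Gclc, which makes the first step of glutathione, had ratios of -0.11, -0.06, -0.18 and -0.17 with telmisartan and -0.05, 0.01, -0.13 and 0.02 with irbesartan, against 0.33, 0.34, 0.31 and 0.36 with pioglitazone (-0.42 ± 0.03, adjusted p = 3.51e-05). The glutathione transferases Gstm1 (0.43) and Gstm2 (0.50) went the other way, lower with all drugs and least so with the blockers.

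Lipid synthesis and sugar metabolism had genes in both directions. Of 22 lipogenesis genes 5 were higher and 5 lower with the blockers (2 lower with arrays scaled), against 11.1% higher and 7.71% lower over all genes. Thrsp, a lipogenic nuclear protein, had ratios of -1.01, -1.02, -1.02 and -1.01 with telmisartan and -0.25, -0.42, -0.22 and -0.43 with irbesartan, against -1.41, -1.54, -1.504 and -1.51 with pioglitazone. The 3 groups did not overlap, with a joint difference of 0.82 ± 0.04 and telmisartan -0.69 relative to irbesartan (adjusted p = 7.79e-06). Dgat2, which completes triglyceride synthesis, and fatty acid synthase (Fasn) were higher with the blockers (0.68 and 0.39), whereas Acacb, an acetyl-CoA carboxylase, was lower (-0.56). Cholesterol synthesis genes stood above vehicle with all drugs (medians 0.49 with telmisartan, 0.47 with irbesartan and 0.53 with pioglitazone), and 5 of 20 were lower and 2 higher with the blockers. Hmgcs1 was lower (-0.40 ± 0.03) and Fdft1, the squalene synthase, was higher (0.19 ± 0.03). With arrays scaled the balance turned to 4 higher and 2 lower and the median difference of the list changed sign (-0.03 as deposited and 0.04 scaled), and 3 were lower without pioglitazone array 1 or 4. The glucose transporter Slc2a1 (-0.55 ± 0.03) and the lactate transporter Slc16a1 (-0.54 ± 0.04) were lower with the blockers, and Slc2a1 lost its call with no dye term (adjusted p = 0.182).

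In the interferon list the blocker mean was higher at 10 of 28 genes and lower at 1 (5 and 1 with arrays scaled), but only 2 of the 10 passed for each blocker. The lower gene was the transcription factor Irf1 (-0.14), a call lost with no dye term and without pioglitazone array 1 or 3. The list's median was 0.08 with telmisartan, -0.18 with irbesartan and -0.18 with pioglitazone. Telmisartan was above irbesartan at 16 of the 28 genes and below it at 0, against 6.81% above and 5.71% below over all genes, and at 12 of the 16 telmisartan stood above vehicle and irbesartan below it. Isg15, a ubiquitin-like modifier named here after its values were seen, had ratios of 1.13, 0.71, 1.20 and 0.63 with telmisartan and 0.16, -0.62, 0.17 and -0.75 with irbesartan, against 0.42, -0.24, 0.36 and -0.09 with pioglitazone. Telmisartan was above irbesartan by 1.18 ± 0.07 (adjusted p = 6.94e-06), while the joint difference was 0.22 (adjusted p = 0.0449). Irbesartan lay below pioglitazone at Isg15 (-0.37, adjusted p = 0.00699), so the blockers stood on opposite sides of pioglitazone there. Ifit3, also named after its values were seen, stood at 0.42, 0.60, 0.32 and 0.30 with telmisartan and -0.78, -0.95, -0.80 and -0.69 with irbesartan, against -0.77, -0.92, -0.67 and -0.84 with pioglitazone, so the irbesartan and pioglitazone arrays overlapped and telmisartan stood above both.

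**Figure D4:**
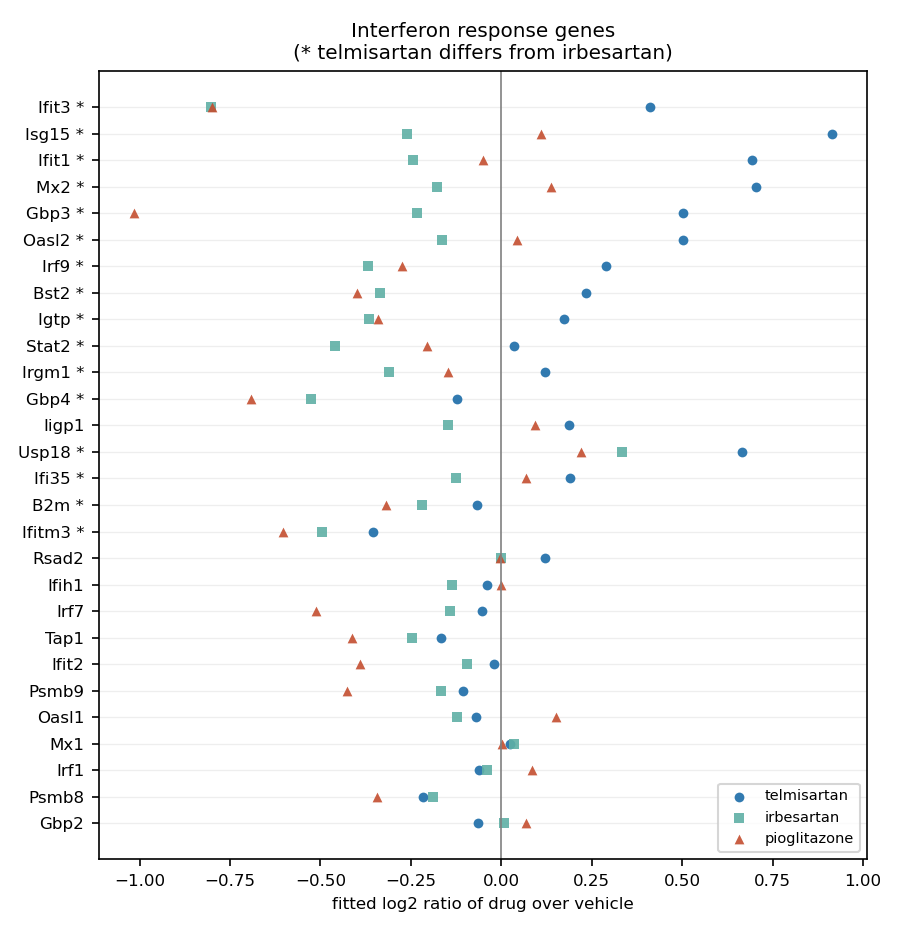
Fitted log2 ratios of drug over vehicle for the 28 tested interferon response genes, ordered by the difference between telmisartan and irbesartan; an asterisk marks the 16 genes where that difference passed. Telmisartan stands to the right of irbesartan at each marked gene.

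Over all features, telmisartan and irbesartan differed from each other at 1965 of 17217 (11.4%), 1052 higher (6.11%) and 913 lower (5.3%) with telmisartan, and 25 reached 1.5-fold (0.145%). Over all genes the share was 12.5%. Both are biphenyl drugs, and what differs by structure between them is the acidic group and the ring system on the biphenyl. Leaving out irbesartan array 3 or telmisartan array 1 gave 39 features at 1.5-fold, and leaving out telmisartan array 2 gave 42. Of the 1390 features where each blocker differed from pioglitazone, 232 (16.7%) also differed between the blockers, and of the 121 among them with a joint difference of at least 1.5-fold, 40 did, 4 by at least 1.5-fold. At the others the difference between the blockers missed the threshold, which does not show that they act alike. In the ER stress list, telmisartan was above irbesartan at 10 of 27 genes and below it at 1. In lipogenesis telmisartan was below irbesartan at 9 of 22 genes and above it at 0. Cidea, a lipid droplet protein of brown fat, had ratios of -0.36, -0.30, -0.30 and -0.23 with telmisartan and 0.02, 0.04, -0.0046 and 0.11 with irbesartan, against 0.10, 0.16, 0.25 and 0.24 with pioglitazone, so that telmisartan lowered it, pioglitazone raised it and irbesartan did not pass against vehicle. The difference between telmisartan and irbesartan was -0.34 ± 0.04 (adjusted p = 5.38e-04). Elovl3, a fatty acid elongase, was lower with the blockers (-0.29, adjusted p = 0.0133) and with telmisartan alone (adjusted p = 0.00259), whereas irbesartan did not pass against pioglitazone (adjusted p = 0.322). Its joint sign turned with arrays scaled (0.14, adjusted p = 0.126), and the call was lost with no dye term (0.135), with the 8 blocker arrays as 1 class (0.0909) and without pioglitazone array 2 (0.0518) or 4 (0.0535).

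Over all genes 11.1% were higher and 7.71% lower. Inflammation genes had 5 of 24 higher and 5 lower (3 lower without pioglitazone array 3), and their median changed sign with arrays scaled. Among them, the acute-phase genes Orm1 (0.65 ± 0.05) and Orm2 (0.63 ± 0.04) and the chemokine Cxcl12 (0.44 ± 0.05) were higher with the blockers, and the chemokine Cxcl1 was lower (-0.45 ± 0.07). Heat shock genes had 5 of 12 lower and 1 higher, but 2 were lower with arrays scaled or without pioglitazone array 1 or 4, and 3 without irbesartan array 1, 2 or 4, pioglitazone array 2, or telmisartan array 1, 2 or 4. The lower ones included the chaperonin Hspd1 (-0.33) and its partner Hspe1 (-0.36, a call lost with no dye term). In the ER stress list 5 of 27 were higher and 4 lower. Without pioglitazone array 1 or 3, 3 were higher, and 1 was lower with arrays scaled and 2 without pioglitazone array 4. Besides Ero1a, the chaperone calreticulin (Calr) was higher (0.30, lost with no dye term) and the asparagine synthetase Asns was lower (-0.23, lost with arrays scaled).

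Regulators of fat cell formation were divided, with 6 of 26 higher and 6 lower, against 11.1% higher and 7.71% lower over all genes. Cebpa, a partner of PPAR-gamma in fat cell differentiation, was higher (0.42 ± 0.05, lost with no dye term) and was lowered by telmisartan (-0.12) and pioglitazone (-0.39) but raised by irbesartan (0.20). Ppargc1b, a coactivator of mitochondrial genes, was lower (-0.50 ± 0.05). Adipokines had 6 of 15 higher and 6 lower (3 lower with arrays scaled), and lipid droplet and lipolysis genes 3 of 18 higher and 4 lower (2 lower with arrays scaled), with the lipase-like Pnpla3 at 0.65. Brown fat genes had 7 of 10 lower and 0 higher, and 4 of the 7 passed for each blocker. The cytochrome oxidase subunit Cox8b stood at -0.22 and the hormone gene Fgf21 at -0.30 (lost with no dye term).

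For the lists that follow, the shares over all genes were 11.1% higher and 7.71% lower. Glycolysis genes had 6 of 19 higher, with hexokinase Hk1 at 0.32, and 4 lower, but 3 were higher without pioglitazone array 4 and 2 lower with arrays scaled. Insulin signalling had 2 of 17 higher, among them the kinase subunit Pik3r1 (0.25, lost with no dye term), and 1 lower, and with arrays scaled 1 was higher and 1 lower. Clock genes had 6 of 17 higher, with Dbp at 0.35 and Nr1d1 at 0.32, and 1 lower, but 2 were higher with arrays scaled and 3 without pioglitazone array 2. Glucocorticoid response genes had 4 of 18 higher, with the kinase Sgk1 at 0.47, and 5 lower, with the phosphatase Dusp1 at -0.43 (lost with no dye term) and the metallothionein Mt2 at -0.38. In that list 2 were higher with arrays scaled, and 3 were lower without pioglitazone array 2 or 4. Actin and contractile genes had 5 of 28 higher, with calponin Cnn2 at 0.56 and Tagln at 0.28 (lost with arrays scaled), and 1 lower, and with arrays scaled 2 were higher and 2 lower. Of the renin-angiotensin system, 2 of 10 genes were higher with the blockers, Agt and the type 2 receptor Agtr2 (0.55, named after its values were seen). The fitted ratio of Agtr2, which had no value on telmisartan array 1, was -0.27 with telmisartan and -0.58 with irbesartan, against -0.98 with pioglitazone.

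Cytosolic ribosomal proteins had 11 of 67 higher and 3 lower, against 11.1% higher and 7.71% lower over all genes. In that list 5 were higher without pioglitazone array 4, and 6 without pioglitazone array 2 or with arrays scaled; 0 were lower with arrays scaled or without pioglitazone array 1 or 2, and 1 without irbesartan array 1 or 3, pioglitazone array 3 or 4, or telmisartan array 4. Proteasome subunits had 2 of 38 higher and 6 lower, but 0 higher and 2 lower with arrays scaled, and 0 (without pioglitazone array 1, 2 or 4) to 4 (without telmisartan array 3) higher when an array was left out. Peroxisome biogenesis had 0 of 11 higher and 1 lower (0 with arrays scaled). Among markers of other cell types, 0 of 8 endothelial, 0 of 8 hepatocyte and 0 of 7 blood cell markers passed. So did 1 of 4 macrophage markers (lower) and 2 of 10 muscle markers (higher, with desmin, Des, at 0.65, a call lost with no dye term). Over all genes 18.9% passed, and these lists are too small to be set apart from that share. Ratios carry no level, so the markers cannot identify the cells.

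**Figure D5:**
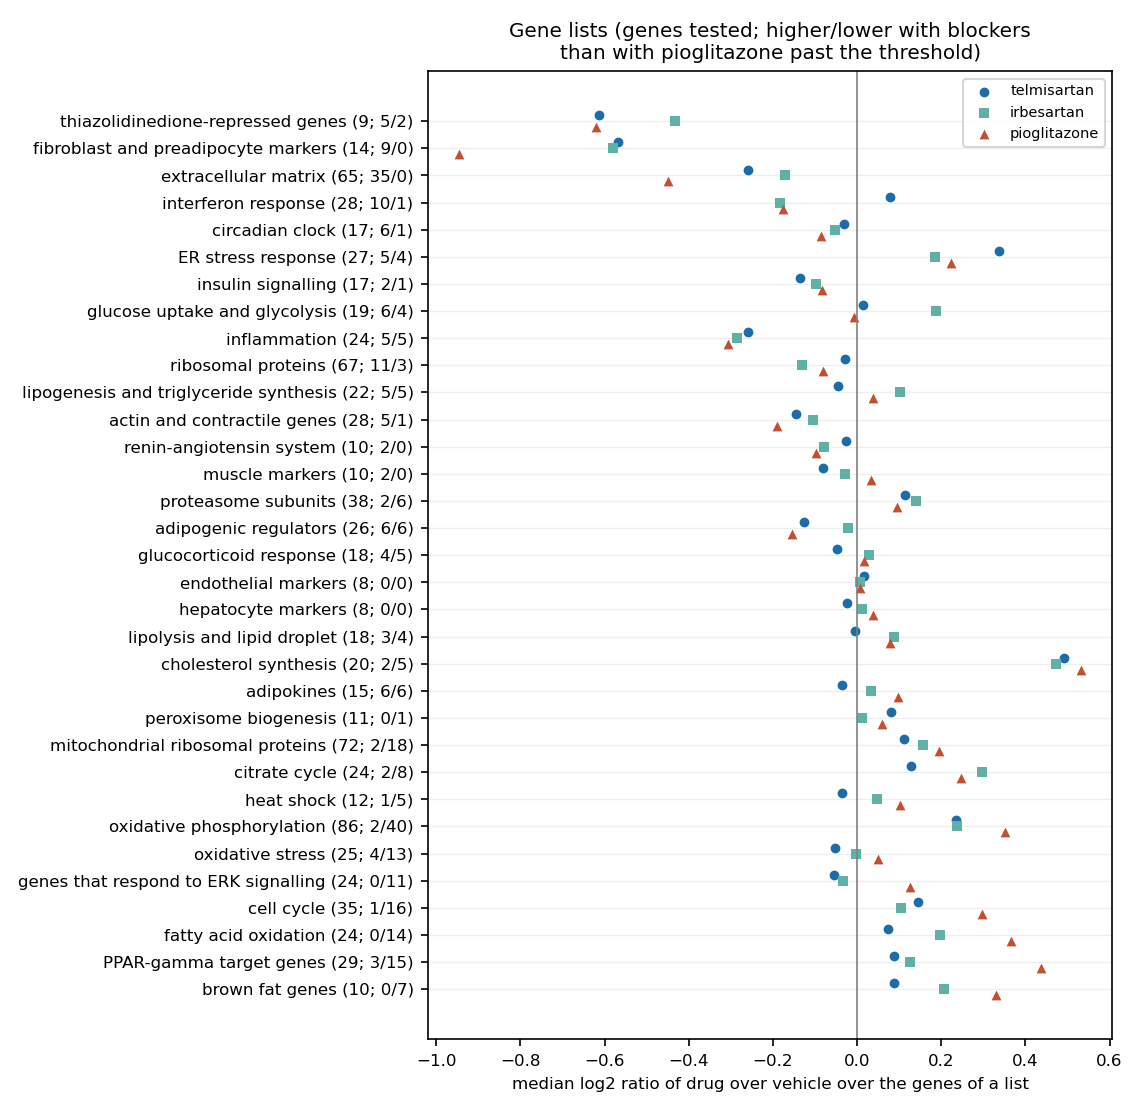
Median fitted log2 ratio of drug over vehicle for each gene list with at least 8 tested genes, with telmisartan, irbesartan and pioglitazone marked. Brackets give the genes tested and the genes higher and lower with the blocker mean than with pioglitazone. The list of genes that respond to ERK was drawn up after the values were seen. Matrix and fibroblast lists lie left of 0 and farthest left with pioglitazone; fatty acid oxidation, PPAR-gamma targets and respiration lie right of 0 and farthest right with pioglitazone.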

How the data were processed

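The deposited table held 1 value per spot for 12 arrays. They were read as log10 ratios of the channels, as the authors deposited them; the unit was inferred from the values, which end at -2 and 2. Array medians lay within 0.00264 of 0, and no further normalisation was applied. How the authors corrected background and dye effects, and with which software, is not given in the sources used here. Intensities were not analysed here, so brightness over background is unknown. Precision is limited by the number of arrays.

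Values were turned to drug over vehicle on the log2 scale. Platform annotation gave 1 gene to 18218 of 22393 spots, several to 16 and none to 4159; of the 18218, 18175 matched RefSeq by Entrez ID. Of the spots without a gene, 471 had the same strong sign in both channel orders (absolute log10 ratio over 0.3) and were left out after their values were seen. Repeat spots (48 sets) were averaged, and features with at least 3 of 4 values for each drug were tested (17217 of 21486). For list counts, the spots of a gene were averaged (13950 genes).

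limma 3.58.1 (R 4.3.3) fitted all 12 arrays with a coefficient per drug and a shared dye term, and tested the class contrast, the 3 pairwise differences, and each drug and the blocker mean against vehicle. Genes were named by rule: the 10 largest and 10 smallest joint differences passing for each blocker with values on all arrays, the 6 largest in each of the opposite and beyond classes, up to 4 per list, and 17 fixed genes, of which the text gives a selection. Of several spots, the 1 with the lowest joint p stands for its gene. Compounds, 34 gene lists and the naming rule were chosen with earlier results of these data known; the ERK list was added after seeing values. The test was checked on simulated data with independent noise on each array, which cannot speak to RNA pools shared between arrays. Alternatives covered filters, scaling, centring, dye terms, array weights, blocks, dye-swap averages and leaving out each array.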

Additional observations from a re-analysis of the deposited data

Results flagged for a closer look

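Among 311 sets of 4 arrays examined for the named genes, 12 held 1 array far from the other 3 by Dixon's criterion (3.86%; chance gives about 1 in 20). Of these, 6 were in telmisartan, 3 of them on array 2, where Gstm1 stood at -1.08 (others -0.86 to -0.84), S100a4 at -0.19 (others -0.67 to -0.60) and Akr1c14 at 0.25 (others -0.13 to -0.07). On telmisartan array 4, Fstl1, a secreted fibroblast protein, was at -0.71 (others -0.60 to -0.59), Plaat3 at -0.77 (others -0.54 to -0.51) and Slc16a1 at 1.09 (others 0.87 to 0.90). On irbesartan array 3, Dbp was at -0.024 (others -0.13 to -0.12) and Mt2 at -0.034 (others 0.11 to 0.12). On irbesartan array 4, Akap9 was at -0.54 (others -0.42 to -0.40). With pioglitazone, S100a4 was at -1.16 on array 1 (others -1.20 to -1.19), Adipoq at -0.64 on array 1 (others -1.08 to -1.04) and Fgf21 at 0.73 on array 3 (others 0.33 to 0.37). Values are log2 ratios of drug over vehicle.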

How the results depend on the processing

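Of 2904 values of 121 named genes under 24 alternatives, 2854 kept their side of the threshold, 49 lost their call and 1 reversed (Elovl3, 0.14 with arrays scaled). Direction was checked only where a value passed in the reported fit or in the alternative. With arrays scaled to the same median absolute deviation, joint calls numbered 1680 (986 higher and 694 lower), 55 of them at least 1.5-fold; 1658 had both blockers on 1 side, 594 passed for each blocker and 412 of those lay nearer to vehicle, with 1625 calls for telmisartan and 1649 for irbesartan against pioglitazone and 39 at least 1.5-fold between the blockers. With no dye term, joint calls numbered 1032 (626 higher and 406 lower), 1027 on 1 side, 451 for each blocker, 402 nearer to vehicle, 18 on opposite sides and 5 beyond pioglitazone, with 829 calls for telmisartan and 956 for irbesartan against pioglitazone, 450 between the blockers and 3737 for irbesartan against vehicle. A dye term for each drug gave 125 on opposite sides and 54 beyond, and array weights gave 47 beyond. Requiring each blocker to pass gave 1390 in place of 2929. The cause of these changes was not tested. Scaling evens out all of an array's spread, whatever it comes from.

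Leaving out each array in turn gave 2041 to 3287 joint calls (1222 to 1835 higher and 819 to 1452 lower), 119 to 156 at least 1.5-fold, 2025 to 3219 on 1 side, 930 to 1454 for each blocker, 789 to 1143 nearer to vehicle, 46 to 87 on opposite sides and 16 to 42 beyond. It gave 1804 to 2677 calls for telmisartan and 2067 to 3522 for irbesartan against pioglitazone, and 1411 to 2395 between the blockers, with 23 to 42 at least 1.5-fold. Against vehicle it gave 6176 to 7616 calls for telmisartan, 4756 to 6322 for irbesartan and 7208 to 9169 for pioglitazone. Single arrays moved some counts by over 1.5 times: without pioglitazone array 4, 819 were lower, 46 opposite and 17 beyond, without pioglitazone array 1 or 2, 17 or 16 were beyond, and between the blockers 39 were at least 1.5-fold without irbesartan array 3 or telmisartan array 1 and 42 without telmisartan array 2.

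Array numbers are shared by the drugs. Deviations of same-numbered arrays correlated at 0.237 to 0.524, like those of other numbers in the same channel order (0.248 to 0.506). With the dye effect removed they correlated at -0.352 to 0.0882, against -0.32 to 0.0395 for other numbers in the same channel order. Removing a dye effect shared by all arrays itself pushes correlations within a channel order down. These values therefore cannot show whether same-numbered arrays were pairs. With the array number as a replicate block in place of the dye term, 2382 features passed jointly, 1105 for each blocker and 1413 between the blockers. For gene lists, 1552 of 1750 counts stayed within 1.5 times the reported count.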
